A study of Mus musculus with 11 samples.

Results

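Immunoproteasome and antigen presentation genes of normal mouse liver are described here over 4 stages of development. The list holds 8 genes, Psmb8, Psmb9, Psmb10, Psme1, Tap1, Tap2, B2m and H2-K1, of 16702 genes tested on the arrays. Every one was found by its name in the array files, and all 8 passed the filter on dim signals, with the element used for each gene well above background in the liver channel on all 11 arrays. The genes were chosen by name with results of these same arrays in view, among them the rise of Psme1 and Psmb8 between E14.5 and E18.5. Their values are therefore given as a description, with no test of the 8 genes.

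The samples are livers of mice at embryonic day 14 (called E14.5 here, 3 arrays), embryonic day 18 (E18.5, 3 arrays), postnatal day 5 (P5, 2 arrays, numbered 2 and 3) and postnatal day 56 (P56, 3 arrays). The labels add a cell type, hepatoblasts at the first stage, immature hepatocytes at the second and hepatocytes after birth, while the protocol speaks of whole livers and of cells isolated from fetal livers, so which of these an embryonic array carries is not settled. The mean of 10 erythroid markers lay at least 3.46 above the adult liver reference, on the log2 scale described next, on each E14.5 array. Those arrays thus do not hold hepatoblast RNA alone. On each E18.5 array that mean lay at least 3.58 above the reference and on each P5 array at least 2.95. Those arrays thus do not hold RNA of the labelled cell type alone either. The replicates are called biological, with nothing said of the number of animals behind each. The methods name C57BL/6 embryos for cells isolated from fetal livers, and no strain for the whole livers.

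Each array carried liver RNA labeled with Cy5 and, as the common reference of all arrays, commercial RNA of normal adult mouse liver labeled with Cy3. Values are log2(Cy5/Cy3), the log2 ratio to that reference, so 0 is the level of the adult reference and a step of 1 is a doubling. A ratio says nothing of how abundant 1 gene is beside another. The arrays numbered 43379 spots besides controls, of which 16790 to 25718 were well above background in Cy5, fewest on P56 replicate 2. All 11 arrays entered a single limma fit of the 4 stages, and a gene passed at a Benjamini-Hochberg adjusted p under 0.05 over all 16702 genes. Precision is limited by how few arrays there are, most of all at P5.

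The proteasome is the barrel-shaped protease that cuts ubiquitin-marked proteins into peptides. When cells meet interferon, and constitutively in many blood cells, the catalytic subunits Psmb5, Psmb6 and Psmb7 are replaced in newly built particles by Psmb8, Psmb9 and Psmb10, which gives the immunoproteasome, and a cap of Psme1 and Psme2 can open its ends. Tap1 and Tap2 together pump the peptides into the endoplasmic reticulum, where Tapbp and other loading factors help to place them on class I molecules, pairs of a heavy chain such as H2-K1 and the light chain B2m, for display to T cells. Hepatocytes are known for a modest class I level that interferon raises.

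Psmb9, Tap1, Psmb8 and Tap2 lie next to each other in the class II region of the H2 complex, within 34.3 kb of chromosome 17 in GRCm38.p6 (chr17:34182030-34216321). H2-K1 lies on the same chromosome (chr17:33996012-34000619), while Psmb10 is on chromosome 8, Psme1 on chromosome 14 and B2m on chromosome 2. RefSeq upstream sequences were found for 7 of the 8 genes, all but Tap2. They are shown because several of the genes moved together on the arrays and some of them are neighbours. The windows were searched on both strands for GAAANNGAA, a short form of the interferon-stimulated response element, TTCNNNGAA, the site form read by STAT proteins, GGGNNTTCC, a short form of the NF-kB site, and CCAAT. Of 32851 RefSeq windows of 250 bases before a start, 7.13% held the first, 7.02% the second, 4.98% the third and 33.8% the fourth. Capitals mark matches to the first 3 letter patterns, none of which overlap, and the sequences are written 5′ to 3′ on the strand of the gene, or on the plus strand for the stretch between 2 genes.
Psmb9 and Tap1, the 225 bases between their divergent starts, chr17:34187331-34187555: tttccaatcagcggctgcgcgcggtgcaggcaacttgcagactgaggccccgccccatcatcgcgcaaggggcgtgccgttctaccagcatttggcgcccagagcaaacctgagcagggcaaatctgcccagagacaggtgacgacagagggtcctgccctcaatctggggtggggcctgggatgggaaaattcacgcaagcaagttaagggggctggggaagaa
Psmb8, 250 bases before the start, chr17:34197945-34198194, plus strand: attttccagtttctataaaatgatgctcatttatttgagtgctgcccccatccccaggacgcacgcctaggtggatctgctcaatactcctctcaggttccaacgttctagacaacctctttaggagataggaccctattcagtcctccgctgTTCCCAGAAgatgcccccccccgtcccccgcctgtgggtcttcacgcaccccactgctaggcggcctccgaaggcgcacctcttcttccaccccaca
B2m, 250 bases before the start, chr2:122147437-122147686, plus strand: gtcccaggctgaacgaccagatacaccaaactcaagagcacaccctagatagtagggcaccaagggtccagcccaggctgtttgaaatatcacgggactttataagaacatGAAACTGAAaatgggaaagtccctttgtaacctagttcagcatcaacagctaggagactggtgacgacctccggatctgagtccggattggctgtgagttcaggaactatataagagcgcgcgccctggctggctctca
H2-K1, 250 bases before the first listed start, chr17:34000348-34000597, minus strand: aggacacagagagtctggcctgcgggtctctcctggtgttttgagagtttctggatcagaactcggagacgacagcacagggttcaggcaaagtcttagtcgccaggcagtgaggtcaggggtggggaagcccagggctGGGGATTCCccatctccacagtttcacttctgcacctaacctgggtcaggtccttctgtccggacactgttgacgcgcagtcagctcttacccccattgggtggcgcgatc

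The stretch shared by Psmb9 and Tap1 held none of the first 3 patterns and 1 CCAAT, at bases 4 to 8. The Psmb8 window held the STAT form TTCCCAGAA at -97 to -89 from the start, and the B2m window the interferon form GAAACTGAA at -139 to -131. The H2-K1 window held the NF-kB form GGGGATTCC at -111 to -103. CCAAT, read on the other strand, was also in the windows of B2m at -53 to -49 and of H2-K1 at -16 to -12. The windows of Psmb10 and Psme1 held none of the 4 patterns. These are matches of letters in a window and say nothing of which factor was bound in these livers.

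The first comparison asks how the genes changed while the fetal liver matured from E14.5 to E18.5. Of the 8 genes, 7 passed as higher at E18.5 and none as lower, where 24.6% of all genes tested passed as higher and 22.8% as lower. Since results of this comparison were in view when the genes were chosen, nothing is read from that count. The median change of the 8 was 0.92 on the log2 scale, beside -0.01 over all genes. Tap1 was the gene that did not pass.

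Among the catalytic subunits, Psmb8 (also called LMP7, the chymotrypsin-like subunit) read -3.35, -3.51 and -3.74 on the E14.5 arrays, -2.90, -2.53 and -2.34 on the E18.5 arrays, -2.79 and -2.42 on the P5 arrays, and -2.66, -2.27 and -2.23 on the P56 arrays. All E14.5 arrays lay below all later arrays, and the 3 later stages overlapped. It was 0.94 higher at E18.5 (SE 0.173), a 1.92-fold change. Psmb9 (LMP2) read -2.94, -3.39 and -3.18 on the E14.5 arrays, -2.24, -2.37 and -2.18 on the E18.5 arrays, -2.41 and -2.06 on the P5 arrays, and -2.32, -1.86 and -1.90 on the P56 arrays. Its pattern was the same, with E14.5 apart from overlapping later stages and a step of 0.90 (SE 0.153), 1.87-fold, to E18.5. Psmb10 (MECL-1) moved less. It read -1.54, -1.72 and -1.72 on the E14.5 arrays, -1.28, -1.37 and -1.28 on the E18.5 arrays, -1.67 and -1.61 on the P5 arrays, and -1.68, -1.32 and -1.47 on the P56 arrays. Its E18.5 arrays lay above those of E14.5 and P5, by 0.35 (SE 0.105) against E14.5, while E14.5, P5 and P56 overlapped. That step of Psmb10 did not pass after median centring, where it was 0.15, nor in the Cy5 channel alone, where it was -0.01, and in that channel Psmb8 rose by 0.22 and did not pass either.

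Psme1, which codes for the alpha subunit of the proteasome activator PA28, read -1.52, -1.6 and -1.61 on the E14.5 arrays, -0.46, -0.42 and -0.34 on the E18.5 arrays, -0.88 and -0.79 on the P5 arrays, and -1.02, -1.13 and -1.03 on the P56 arrays. No 2 stages overlapped, and the order from low to high was E14.5, P56, P5 and E18.5. Its level peaked at E18.5, 1.17 above E14.5 (SE 0.0836), a 2.25-fold difference. It was 0.43 lower at P5 than at E18.5 (log2 change -0.43, SE 0.0935) and 0.51 higher at P56 than at E14.5 (SE 0.0836). With median centring of each array instead of loess, P56 and E14.5 differed by -0.02.

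Of the transporter subunits, Tap1 read -2.17, -2.48 and -2.49 on the E14.5 arrays, -2.18, -2.10 and -2.03 on the E18.5 arrays, -2.16 and -1.48 on the P5 arrays, and -1.83, -1.37 and -1.49 on the P56 arrays. The E14.5 and E18.5 arrays overlapped, with a difference of 0.28 (SE 0.172), and the P56 arrays lay above both. Tap1 was the dimmest of the 8, with a liver signal of 60 to 173 units against 491 to 797 in the reference channel, and the offset of 50 used in the background correction shrinks ratios at that level. From the scanner software's processed signals its rise to E18.5 was 0.63, and it passed. Tap2 read -1.76, -1.96 and -2.01 on the E14.5 arrays, -1.58, -1.43 and -1.47 on the E18.5 arrays, -1.73 and -1.23 on the P5 arrays, and -2.03, -1.94 and -2.02 on the P56 arrays. From E14.5 to E18.5 it gained 0.42 (SE 0.126), and at P56 lay below E18.5 and P5 and overlapped E14.5. That gain did not pass after median centring (0.39), in the Cy5 channel alone (0.22) or with the scan as a fixed block (0.33).

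Of the class I molecule, B2m, the invariant light chain, read -4.55, -4.70 and -4.63 on the E14.5 arrays, -3.09, -3.05 and -2.83 on the E18.5 arrays, -2.68 and -2.59 on the P5 arrays, and -1.82, -2.54 and -2.34 on the P56 arrays. The stages followed each other upward with no overlap under loess, from a step of 1.64 to E18.5 (SE 0.156, 3.11-fold) to a total of 2.39 at P56 (SE 0.156, 5.25-fold). The later steps of B2m, 0.36 to P5 and 0.40 from P5 to P56, did not pass. Over the alternatives the change from P5 to P56 ran from -0.03 to 1.01. H2-K1, a classical heavy chain, read -3.96, -3.79 and -3.64 on the E14.5 arrays, -2.47, -2.70 and -2.30 on the E18.5 arrays, -2.32 and -2.67 on the P5 arrays, and -1.45, -1.68 and -1.67 on the P56 arrays. E18.5 and P5 overlapped, and both lay between E14.5 and P56. The step to E18.5 was 1.31 (SE 0.136, 2.47-fold) and the total at P56 was 2.20 (SE 0.136, 4.59-fold). These H2-K1 values come from an element whose reference channel was saturated in 101 of 110 spots. The other elements for H2-K1, which were not saturated, gave 0.79 and 0.45 to E18.5 and 0.98 and 1.02 from E14.5 to P56. Over that course the elements used for Psmb8 and Psmb9 gave 1.14, and the dimmer Psmb8 element 0.65.

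**Figure D1:**
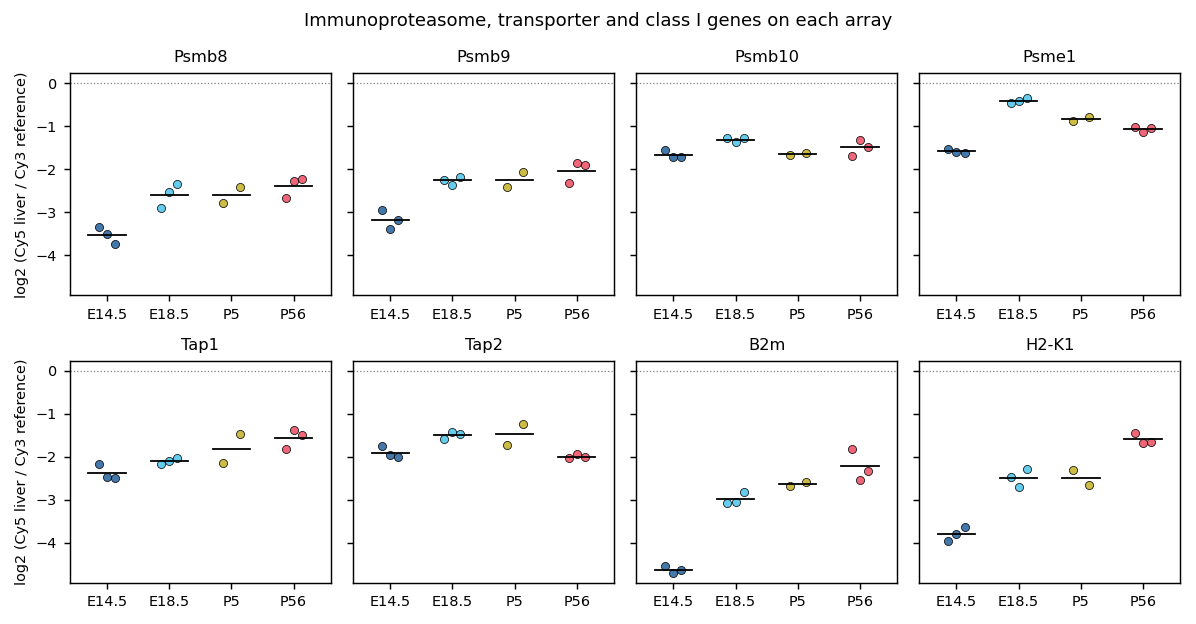
Log2 ratio of liver (Cy5) to the adult liver reference (Cy3) of the 8 genes on each of 11 arrays, by stage; points are arrays, bars are stage means and the dotted line at 0 is the level of the reference. Every point lies below 0, B2m runs from a mean of -4.63 at E14.5 to -2.23 at P56, and Psme1 peaks at E18.5.

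The scan times in the file headers group some stages, with the E14.5 arrays and E18.5 replicate 1 in 1 scan and P5 replicate 3 with the P56 arrays in another. Within the first scan E18.5 replicate 1 lay above all 3 E14.5 arrays for 7 genes, Tap1 being the exception, where 39.3% of all genes did, with differences of 0.20 to 1.53 over the 8. With the scan as a fixed block 5 of the 8 passed as higher at E18.5, beside 17.9% of all genes. Median centring and the Cy5 channel alone also left 5 each, beside 22.8% and 20.5%. With a second grouping in the file headers, the array barcode, as a block, 4 passed, beside 16.2%.

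From E18.5 to P5 no gene of the 8 passed as higher (background 7.32%) and 1, Psme1, as lower (background 6.4%). At an unadjusted p under 0.05 limma gave 0 higher and 2 lower, where 4855 of all 16702 genes were under it in either direction. The arrays of 3 genes did not overlap between these stages, those of Psme1, of Psmb10 with a change of -0.32 (SE 0.118) and of B2m with 0.36 (SE 0.174), where 22.5% of all genes lay apart as higher and 21.5% as lower. The methods' t-test, on the same values, gave 1 higher and 2 lower unadjusted and none after adjustment. Of all 16702 genes it gave 3466 unadjusted in either direction, and 40 higher and 21 lower after adjustment. The call of Psme1 was also lost after median centring, where the change was -0.18, and with the authors' gene table, where it was -0.40.

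From P5 to P56 H2-K1 passed as higher by 0.90 (SE 0.152), and Tap2 as lower, with a change of -0.51 (SE 0.141). These were 1 gene each way of 8, where 20.9% of all genes passed as higher and 24.7% as lower. The change of H2-K1 was 0.55 after median centring and did not pass, and that of Tap2 was -0.11 in the Cy5 channel alone and did not pass. The other 6 had log2 changes from -0.23 for Psme1 to 0.40 for B2m, and the P5 and P56 arrays of Psme1 and B2m did not overlap, where 28.3% of all genes lay apart as higher and 33% as lower. This comparison depends on the scaling. Median centring moved the median of all genes to -0.47, split the calls into 3.9% higher and 53.1% lower, and gave 0 of the 8 genes as higher and 4 as lower. The median change of the 8 was 0.21 beside -0.02 over all genes under loess, and -0.46 beside -0.47 after median centring. Within the scan shared by P5 replicate 3 and the 3 P56 arrays the differences ran from -0.77 to 1.08. Without P5 replicate 3, 2 genes passed as higher and none as lower, and 2 passed as higher without P56 replicate 2.

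Over the whole course, P56 against E14.5, 6 of the 8 genes passed as higher, where 36.1% of all genes did, and none passed as lower, where 34.8% did. Besides B2m and H2-K1 these were Psmb8 and Psmb9, both with 1.14 (SE 0.173 and 0.153), Tap1 with 0.82 (SE 0.172) and Psme1 with 0.51. Psmb10, with 0.17 (SE 0.105), and Tap2, with -0.09 (SE 0.126), had E14.5 and P56 arrays that overlapped. After median centring 4 passed as higher and 2 as lower (Psmb10 -0.31 and Tap2 -0.94), where 14.6% of all genes passed as higher and 49.3% as lower and the median of all genes stood at -0.33. The rises of B2m, H2-K1, Psmb8 and Psmb9 thus passed under both scalings, and those of Psme1 and Tap1 under loess. With the array barcode as a block Psmb8 (0.67) and Tap1 (0.70) did not pass in this comparison.

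**Figure D2:**
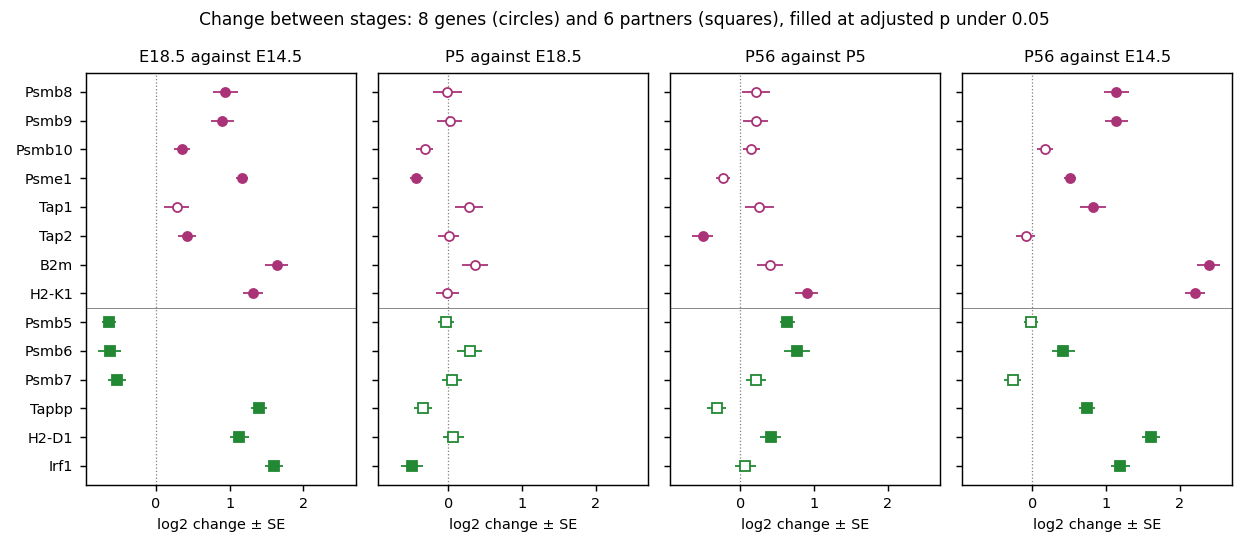
Log2 change with its standard error in 4 comparisons of stages for the 8 genes (circles) and 6 partner genes (squares), filled where the limma adjusted p was under 0.05. The immunoproteasome and class I genes lie right of 0 from E14.5 to E18.5, while the constitutive subunits Psmb5, Psmb6 and Psmb7 lie left of it.

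The subunits that Psmb8, Psmb9 and Psmb10 replace went the other way between E14.5 and E18.5. Psmb5 read 0.65, 0.60 and 0.52 on the E14.5 arrays and 0.03, -0.16 and -0.02 at E18.5, and fell by 0.64 on the log2 scale (SE 0.0945, limma adjusted p 0.000172). Psmb6 read 0.26, 0.11 and 0.13 at E14.5 and -0.44, -0.41 and -0.55 at E18.5, and fell by 0.63 (SE 0.156, limma adjusted p 0.00557). Psmb7 read 0.53, 0.50 and 0.49 at E14.5 and -0.01, -0.02 and -0.04 at E18.5, and fell by 0.53 (SE 0.121, limma adjusted p 0.00331). No array of either stage overlapped for any of the 3, where 31.5% of all genes lay apart as lower and 22.8% passed as lower. From P5 to P56 Psmb5 rose by 0.64 (limma adjusted p 0.000445) and Psmb6 by 0.77 (limma adjusted p 0.00366), the rise of Psmb5 becoming -0.08 after median centring.

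The difference of the 2 log2 ratios on the same array sets each immunoproteasome subunit against its counterpart and leaves out whatever both share on that array. Psmb8 minus Psmb5 lay between -4.26 and -3.99 at E14.5, between -2.93 and -2.32 at E18.5, between -2.67 and -2.38 at P5, and between -3.18 and -2.75 at P56. Psmb9 minus Psmb6 lay between -3.50 and -3.19, then -1.96 and -1.63, then -2.09 and -2.02, and finally -2.72 and -2.54. Psmb10 minus Psmb7 lay between -2.22 and -2.08, then -1.35 and -1.24, then -1.74 and -1.58, and finally -1.96 and -1.26. In each pair the E14.5 arrays were the lowest with no overlap with a later stage, and the mean moved toward the immunoproteasome subunit by 1.58, 1.54 and 0.88 to E18.5. From P5 to P56 the means moved back by -0.43, -0.56 and -0.06. At P56 all 3 differences were below 0, that is, farther toward the constitutive subunit than in the adult reference. Since the members of each pair share the choice made above, these differences carry no test.

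**Figure D3:**
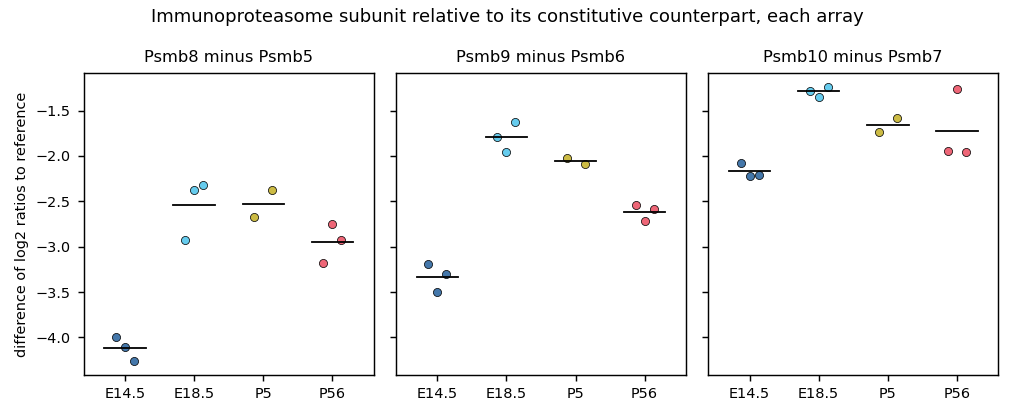
Difference of log2 ratios to the reference between each immunoproteasome subunit and the constitutive subunit it replaces, on each array by stage; bars are stage means, and 0 is the proportion in the adult reference. All 3 pairs are lowest at E14.5 and rise to E18.5, by 1.58, 1.54 and 0.88 in the mean.

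Some genes are read by more than 1 element, a 60-base sequence printed on the array, and the elements of a gene did not always move by the same amount. The 8 genes had 13 elements, with 2 for Psmb8 and 3 each for B2m and H2-K1. The 2 Psmb8 elements abut on the genome with 3 bases shared, and the brighter one spans 325 bases of genome, more than its own length, so it joins 2 exons. They are printed with the 2 dimmer H2-K1 elements, which lie close together in the gene and did not follow the brightest H2-K1 element over the whole course. The brightest H2-K1 element and those of B2m are given by their values alone. Positions follow the mm7 build used in the array files, and no base is capitalised.
Psmb8, brighter element, chr17:32280725-32281049: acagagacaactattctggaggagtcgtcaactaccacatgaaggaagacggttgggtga
Psmb8, dimmer element, chr17:32280668-32280727: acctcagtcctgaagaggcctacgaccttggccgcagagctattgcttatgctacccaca
H2-K1, second element, chr17:32077868-32078115: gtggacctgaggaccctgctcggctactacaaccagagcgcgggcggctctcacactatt
H2-K1, dimmest element, chr17:32077678-32077737: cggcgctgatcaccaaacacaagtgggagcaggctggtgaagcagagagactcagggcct

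The brighter Psmb8 element gave the change of 0.94 to E18.5 and the dimmer 0.57 (SE 0.14), and to P56 they gave 1.14 and 0.65. For H2-K1 the 3 elements gave 1.31, 0.79 (SE 0.149) and 0.45 (SE 0.184) to E18.5, and 2.20, 0.98 and 1.02 to P56. The brightest H2-K1 element, on 10 spots of each array, was saturated in the reference channel in 101 of 110 spots, so its ratios to the reference are too high by an unknown amount and its changes rest on the liver channel, which was not saturated. With saturated spots left out, a setting added after the data had been seen, the second element stood for H2-K1 and the change from P5 to P56 was 0.23 and did not pass. Class I heavy chains are close copies of each other, so an element named for H2-K1 may also read its relatives.

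For B2m the 2 bright elements gave 1.64 and 1.31 to E18.5 (SE 0.155 and 0.125). They parted from E18.5 on, with 0.36 and 0.68 (SE 0.139) to P5, 0.40 and 1.07 from P5 to P56 and 2.39 and 3.06 over the whole course. The dimmest element, in the interior of the gene, was read weakly, with 39 to 138 units in the liver channel, and well above background on 7 of 11 arrays. It rose by 0.69 to E18.5 (SE 0.269). Under loess all 13 elements had a higher mean at E18.5 than they had at E14.5.

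**Figure D4:**
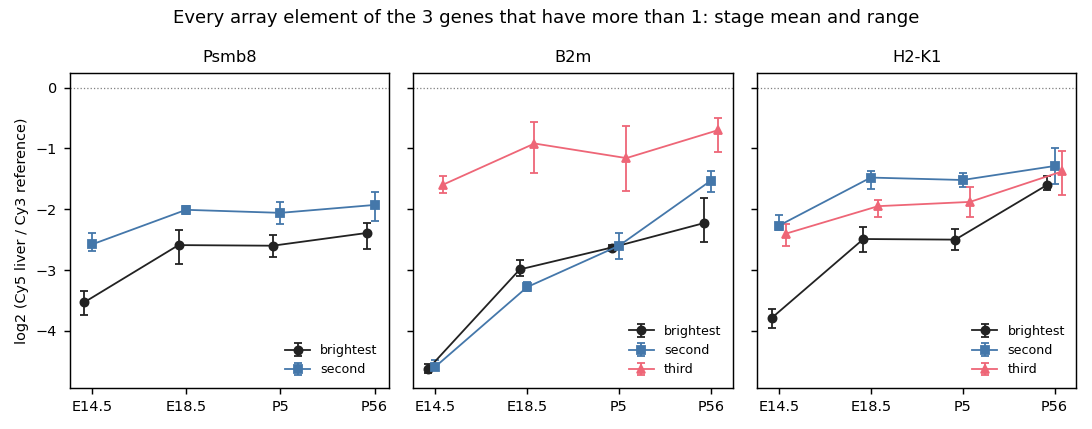
Stage means of the log2 ratio to the reference for each array element of Psmb8, B2m and H2-K1, with bars from the lowest to the highest array. The elements of a gene run in the same direction to E18.5, by 0.57 to 0.94 for Psmb8, 0.69 to 1.64 for B2m and 0.45 to 1.31 for H2-K1.

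The other genes of the pathway were taken from 4 lists of partners, 57 genes of which 53 were found on the array and 52 tested; Psme2, the other PA28 subunit, and Nlrc5, the class I transactivator, were not matched. From E14.5 to E18.5, 31 of the 52 partners passed as higher and 9 as lower, with a median change of 0.53. The counts of this step are to be read beside 24.6% higher and 22.8% lower over all genes. None of 7 proteasome partners rose and 5 fell, whereas 15 of 17 other class I chains rose and 1 fell. Among 9 genes of peptide trimming and loading 5 rose, with Tapbp, the tapasin that bridges transporter and class I molecule, higher by 1.40 (SE 0.112, limma adjusted p 1.2e-06). Tapbp read -2.72, -2.87 and -2.82 at E14.5 and -1.57, -1.45 and -1.20 at E18.5, and its second, dim element gave 0.11 (SE 0.122). H2-D1, the other classical heavy chain, rose by 1.13 (SE 0.127, limma adjusted p 2.04e-05), from -3.75, -3.84 and -3.68 to -2.88, -2.59 and -2.42.

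The largest rises among partners were those of Azgp1, a secreted relative of class I chains, by 2.86, H2-Q10, a secreted class I chain made by liver, by 2.40, the interferon transducer Stat2 by 1.88, Cd1d1, which presents lipids, by 1.84 and H2-T23, the nonclassical Qa-1 chain, by 1.81. H2-Q10 lacked a value on E14.5 replicate 3. The largest falls were those of Psmb5 and Psmb6, of H2-Q8 with a log2 change of -0.57, of Nfyc, a subunit of the CCAAT-binding factor, with -0.56, and of Rfxank, a subunit of the RFX factor of class I and II promoters, with -0.55. The 10 were picked from the partners that passed with arrays that did not overlap, so both traits follow from the choice.

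Of 19 tested genes that control transcription of the pathway, 11 rose and 3 fell to E18.5, beside 24.6% and 22.8% of all genes. Irf1, an interferon-induced activator of Psmb9, Tap1 and class I genes, read -3.34, -3.62 and -3.46 at E14.5 and -1.82, -1.88 and -1.91 at E18.5, a rise of 1.6 (SE 0.128, limma adjusted p 1.21e-06). Its second, dim element gave 0.35 (SE 0.189) to E18.5. To P5 the first element then changed by -0.49 (limma adjusted p 0.0437) and the second by 0.12 (SE 0.212), and the call was lost with the mean over both elements (-0.18) and after median centring (-0.29). In a list of 22 interferon-stimulated genes all 22 rose to E18.5, from 0.50 for Mx1 to 5.93 for Rsad2, with a median of 1.48. From E18.5 to P5, 7 of them fell with none rising, beside 6.4% lower and 7.32% higher over all genes.

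From E18.5 to P5, 7.32% of all genes passed as higher and 6.4% as lower. Of the 52 partners 1 passed as higher, Cd1d1 by 1.47, and 6 as lower. Those with arrays apart included Isgf3g (Irf9) with -0.83, Nfya with -0.66, Calr with -0.61 and Pdia3 with -0.60, of which the latter pair are chaperones of class I folding. Nfya was 0.12 higher in the authors' gene table. Without P5 replicate 2 the number of partners that passed was 11, and without P5 replicate 3 or any 1 E18.5 array it was 4.

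From P5 to P56, 15 partners passed as higher and 12 as lower, against 4 and 29 after median centring. Of the 52 partners tested this is to be read beside 20.9% higher and 24.7% lower over all genes, and 3.9% and 53.1% after median centring. The largest rises were those of Cd1d1 by 1.98, H2-Q10 by 1.62, H2-T10 by 1.42, H2-Q8 by 1.36 and Sec61b by 1.21. The largest falls were those of the interferon-gamma receptor chain Ifngr1 with -1.40, the kinase Jak1 with -1.19, Creb1 with -0.95, Irf8 with -0.92 and the kinase Jak2 with -0.89. H2-D1 rose by 0.41 under loess and stood at -0.06 after median centring. Over the whole course 29 passed as higher and 11 as lower, against 20 and 21 after median centring. The shares over all genes were 36.1% higher and 34.8% lower, and 14.6% and 49.3% after median centring. Cd1d1 rose by 5.28 (38.9-fold), H2-Q10 by 3.89, Azgp1 by 3.44, the iron-regulating Hfe by 2.84 and H2-T10 by 2.37. The largest falls over the course were those of Nfya with -1.59, Creb1 with -1.25, Jak2 with -1.14, Psme3 with -1.12 and Nfyc with -0.79. Psme3, the nuclear activator PA28 gamma, thus changed over the course against the direction of Psme1 under loess.

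Marker lists of the cells that a liver can hold changed unequally. Their counts to E18.5 stand beside 24.6% higher and 22.8% lower over all genes. From E14.5 to E18.5 all 13 Kupffer cell and macrophage markers rose, and the mean of that list went from between -2.91 and -2.52 to between -1.54 and -1.27 over the arrays. All 7 pan-leukocyte, all 9 neutrophil and 8 of 9 B cell markers rose too, as did all 11 hepatocyte markers, 4 of 6 hepatoblast and 6 of 10 endothelial ones. Other lists did not move 1 way, since 3 of 10 erythroid markers rose and 1 fell, 4 of 10 stellate and fibroblast markers rose and 3 fell, and 2 of 6 megakaryocyte markers fell with none rising. Of T and NK cell markers 4 of 11 rose, and of class II antigen presentation genes 2 of 9, Cd74 and Ctss. Counts near the shares over all genes, such as 2 of 9 or 3 of 10, are not read as a change of a cell type. At E14.5 no array was well above background for the B cell markers Cd79a, Igll1, Cd22 and Pax5 or for Cd2 and Klrb1c. From P5 to P56, 9 of 9 neutrophil, 7 of 13 macrophage and 5 of 7 pan-leukocyte markers fell and none of these rose. All 10 erythroid, all 6 hepatoblast and 5 of 6 megakaryocyte markers fell too, with none rising. Of 10 endothelial markers 7 fell and 1 rose, and of 10 stellate and fibroblast ones 5 fell and 2 rose. Of 11 hepatocyte markers 4 went each way, and of 9 B cell ones 2 fell. Under loess 24.7% of all genes passed as lower and 20.9% as higher, and after median centring 53.1% and 3.9%. The share of leukocytes or of hepatocytes in the rise to E18.5 was not tested, and in RNA of a mixed tissue fewer cells of a type and less RNA per cell cannot be told apart.

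The adult liver reference allows the stages to be set against an outside level. All 88 values of the 8 genes lay below it, from -4.70 for B2m at E14.5 to -0.34 for Psme1 at E18.5. At P56, when the mice were adult, all 8 genes were below -1 on all 3 arrays, with stage means from -2.39 for Psmb8 to -1.06 for Psme1. Over all genes 3.56% were below -1 on every P56 array, or 12.5% after median centring, which left the 8 below -1 as well. Proteasome partners had a median of 0.07 at P56 with none of 7 below -1. Low values were shared by 17 of 22 interferon-stimulated genes, 7 of 9 class II genes, 9 of 13 macrophage, 6 of 9 neutrophil and 4 of 7 pan-leukocyte markers. So it was for 7 of 17 other class I chains and 7 of 19 transcription control genes. Among markers it held for 3 of 11 T and NK cell, 3 of 10 stellate and fibroblast and 2 of 9 B cell ones. Hepatocyte markers had 1 of 11, and endothelial and erythroid ones none of 10. After median centring endothelial markers had 3 of 10, hepatocyte ones 2 of 11 and macrophage ones 12 of 13. The reference was 1 commercial RNA, so its own spread was not measured, and dyes were not swapped, so a bias of the dye for single genes cannot be told apart from a difference from the reference. No strain is given for the P56 livers or for the reference, so a difference of strain cannot be told apart either.

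**Figure D5:**
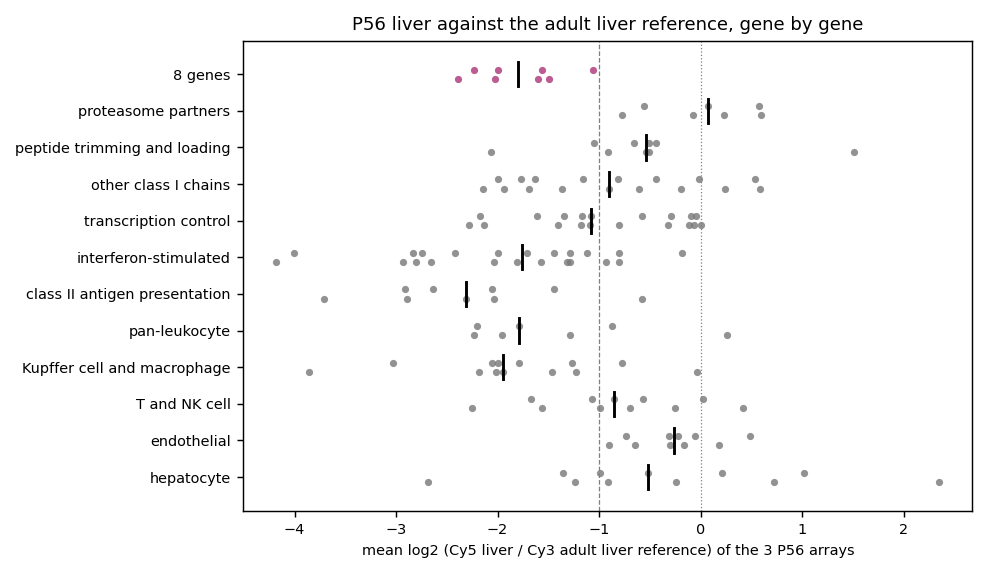
Mean log2 ratio of the 3 P56 arrays to the adult liver reference for each tested gene of 12 lists; the black bar is the median of a list, the dotted line is the reference and the dashed line is -1. All 8 genes lie left of -1, near the interferon-stimulated, class II and macrophage lists, while proteasome partners spread around 0.

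The genes nearest in profile were sought outside all lists by the root mean square difference over the 11 arrays, each gene centred on its own mean, from the mean profile of the 8. The nearest 10 were Ngef with 0.0779, Pxk with 0.0807, Vegfa with 0.083, Repin1, Zbtb7c, Chkb, Olfr176, Slc31a2, Arfgef1 and Txndc4 with 0.106. Psmb9 and Psmb8 lay closest to that mean among the 8, with 0.122 and 0.143, and B2m farthest, with 0.559. The likeness is one of shape only, since Vegfa had stage means of -1.27 (E14.5), -0.34 (E18.5) and -0.08 (P56).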

How the data were processed

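For each of 11 arrays the authors deposited Feature Extraction 9.5.1.1 output, which holds Cy5 and Cy3 intensity, local background and quality marks of every spot, with no normalization between arrays. A gene table of log2 ratios that the authors normalized by lowess, averaged over probes and deposited was used as an alternative only. Submitters' notes name limma.

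Mean signals were corrected with normexp (offset 50), and loess was run on the log ratios of each array. Control and outlier spots were left out and the spots of a probe averaged. Probes were kept that stood well above background in Cy5 throughout some stage, with at most 1 missing value per stage, and the brightest stood for its gene, which left 16702 genes. Stages were fitted with limma 3.58.1 in R 4.3.3 with Benjamini-Hochberg adjustment. Tables and figures used Python 3.11.15, pandas 2.3.3 and matplotlib 3.10.9.

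The 8 genes and all lists were chosen with earlier results of these arrays known. Named partners are 6 genes always given and, per comparison, the 5 largest rises and falls that passed with arrays apart. Psme2 and Nlrc5, also meant to be named, were not matched. Values of some listed genes are not reported here. Names are those of the array files, updated through RefSeq (GRCm38.p6) where accessions allowed, and promoter sequences are from RefSeq.

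The fit was tested on simulated data in which 200 of 16702 genes were changed. From E14.5 to E18.5, 20% of those changed by 0.5 and 96% of those changed by 1 were recovered. For changes of 0.5 the share was 0% from E18.5 to P5 and 4% from P5 to P56, and for changes of 1 it was 93.5% and 94%. Few calls between those stages thus do not mean that smaller changes were absent. Far more genes passed on the real arrays, 4106 as higher and 3803 as lower from E14.5 to E18.5. That loosens the adjusted threshold, so the shares recovered there may be larger than in the simulation. Alternatives covered background, scaling, channel, filters, probe choice, the authors' table, blocks, a t-test and each array left out. Tumor and human samples were not analysed here.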

Additional observations from a re-analysis of the deposited data

How the results depend on the processing

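Replicate numbers did not pair the arrays, since deviations of arrays with the same number correlated at -0.306 to 0.187 and 1 of 15 pairs was above 0.1. With the replicate number as a block, the number of the 8 genes passing as higher stayed 7, 0, 1 and 6 over the 4 comparisons in the order of the report, and partners that passed numbered 38, 5, 25 and 39 in place of 40, 7, 27 and 40.

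From E14.5 to E18.5, the array barcode as a block (a setting chosen after seeing the data) left 4 of the 8 genes higher and 25 partners passing, and a limit of 1 on the log2 change left 3 and 19. From E18.5 to P5, the 1 gene lower became 0 with processed signals, median centring, the Cy5 channel alone, the authors' table, the methods' t-test and the limit of 1. Partners passing there were 4 with processed signals, 2 with median centring, 2 with the authors' table, 0 with the t-test, 4 with the barcode block and 1 with the limit. From P5 to P56, the 1 gene higher became 2 without background subtraction, with the mean over probes and with the authors' table, 4 in the Cy5 channel alone, and 0 with median centring, the t-test, the limit, and saturated spots left out. The 1 gene lower became 4 with median centring, 2 with no filter and with the mean over probes, and 0 in the Cy5 channel alone, with the t-test and with the limit. Partners passing were 1 with the t-test and 8 with the limit, of 27. From E14.5 to P56, median centring gave 2 genes lower and the limit left 25 partners.

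Leaving out 1 array at a time, genes higher ranged from 5 to 7, 0 to 1, 1 to 2 and 6 to 7 over the comparisons, and genes lower from 0 to 0, 1 to 2, 0 to 1 and 0 to 0. Partners passing ranged from 34 to 41, 4 to 11, 19 to 29 and 35 to 41. The arrays that moved a count by over 1.5 times were P5 replicate 2 (1 gene higher and 11 partners from E18.5 to P5), P56 replicate 1 (2 genes lower there), P5 replicate 3 (4 partners there, and 2 genes higher and 0 lower from P5 to P56), P56 replicate 2 (2 genes higher from P5 to P56) and each E18.5 array (4 partners from E18.5 to P5).

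Calls reversed in sign were, after median centring from E14.5 to P56, Psme1 (-0.02), Tap1 (-0.03), Irf8 (-0.47), Isgf3g (-0.04) and Psmb6 (-0.11), and from P5 to P56 H2-D1 (-0.06), Psmb5 (-0.08) and Rfxank (-0.09), in the Cy5 channel alone Psmb10 to E18.5 (-0.01), and in the authors' table Nfya to P5 (0.12). The causes were not tested. Of the other values of single genes, 2034 under alternatives and 1509 with 1 array left out kept their side of the threshold, 122 and 59 no longer passed, and 46 and 16 newly passed. Signal limits Tap1 and the third B2m element, and saturation of the reference limits H2-K1.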

Other observations

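The class II pathway, in which professional antigen-presenting cells show peptides from outside the cell, had 2 of 9 tested genes passing as higher to E18.5, beside 24.6% of all genes. Of these Cd74, the invariant chain, rose by 0.72 (SE 0.13) and Ctss, the protease that trims it, by 2.37 (SE 0.176), while H2-Aa (0.45), H2-Ab1 (0.15), H2-Eb1 (0.27), H2-DMa (0.10), H2-DMb1 (0.34), H2-Oa (-0.07) and the transactivator Ciita (C2ta on the array, -0.10) did not pass the limma test. Over the whole course 7 of the 9 passed as higher and H2-Ab1 as lower, with a log2 change of -0.35. Of all genes 36.1% passed as higher there and 34.8% as lower.

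In the interferon-stimulated list the largest rises to E18.5 were those of Rsad2 by 5.93 (SE 0.221), Isg15 by 3.98 (SE 0.211) and Iigp1 by 3.56 (SE 0.125), and the smallest that of Mx1, which was not well above background on any array at E14.5 or P56. At P56 all 22 genes of that list were below the adult reference on every array, as were 9 of 9 class II genes and 12 of 13 macrophage markers, against 39.4% of all genes.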
